A study of Drosophila melanogaster with 24 samples.

Results

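The genes described here are 9 core components of the circadian clock of Drosophila melanogaster: per, tim, Clk, cyc, vri, Pdp1, cwo, cry and dco. They were chosen by name, as core clock genes, at a time when earlier results of these data were known, and they are 9 of the 13945 protein-coding genes on the assembled chromosomes. For each gene, the share of its body and of the 1 kb upstream that lay under peaks of a histone mark was measured in each of 16 libraries, and this share is called coverage below. One gene, per, lies on the X chromosome and the other 8 on the large autosomes.

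In the fly clock, the transcription factors CLK and CYC form a dimer that binds E-boxes (the letters CACGTG) and switches on per, tim, vri, Pdp1 and cwo. PER and TIM proteins build up, enter the nucleus and shut CLK/CYC off, which closes the main loop, while VRI represses and PDP1 activates Clk in another loop and CWO competes at E-boxes. CRY is the blue-light receptor that sets the clock through TIM, and dco encodes Doubletime, the casein kinase that phosphorylates PER. H3K27me3, trimethylation of a lysine of histone H3, is laid down by Polycomb repressive complex 2 and marks silent genes and Polycomb domains. H3R17me2, asymmetric dimethylation of an arginine of the same histone tail, is made in mammals by CARM1, an arginine methyltransferase linked to active transcription.

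The series comprises chromatin immunoprecipitation with sequencing of heads from 40-day-old LKRSDH MB01942 mutants, 40-day-old w1118 controls, 3-day-old LKRSDH MB01942 mutants and 3-day-old w1118 controls, with 2 libraries per condition for H3R17me2, 2 for H3K27me3 and 2 of input. Flies of 40 days are called aged and flies of 3 days young below. LKRSDH encodes lysine ketoglutarate reductase/saccharopine dehydrogenase, and MB01942 is an insertion with a GFP marker, carried homozygously. The study backcrossed its mutants to w1118, so both genotypes share that background, which lacks the white gene product. The flies were males by the study's methods, each sample was made of 25 heads, and the heads were taken at ZT8, that is 8 h after lights on in a light-dark cycle. A head mixes clock neurons, other neurons, glia, photoreceptors and fat body, so a mark lost from some of the cells and a mark weakened in all of them cannot be told apart. The study describes its ChIP-seq replicates as biological, while the labels do not say whether they came from separate cultures, so the p-values measure the spread between these libraries.

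The H3R17me2 lists held 10627 to 17105 peaks and the H3K27me3 lists 3575 to 6295. They hold no read counts, and the study states a nominal sequencing depth but none per library, so the depth behind each value is unknown. Coverage of a gene averaged 33.0% ± 8.96 for H3R17me2 and 23.4% ± 4.89 for H3K27me3 on the large autosomes, and 0.352% ± 0.293 and 4.72% ± 1.67 on the X chromosome (SD, n = 8 libraries each). One H3R17me2 list, that of young mutant replicate 2, had 0 peaks on the X chromosome. Of the H3R17me2 peaks 0.174% had a q-value under 0.05, against 22.0% of the H3K27me3 peaks. The Polycomb targets Ubx, Abd-B, Antp, en and eve had H3K27me3 coverages of 99.97% to 100%, and the housekeeping genes Act5C, RpL32, alphaTub84B, eEF1alpha1 and Gapdh2 had 0 in every H3K27me3 library. Of these housekeeping genes 2 lie on the X chromosome, and 55.2% of all coding genes had 0 in all 8 H3K27me3 libraries. Peaks do not measure expression. Of the markers of head cell types, elav (X-linked) and nSyb of neurons and ninaE of photoreceptors had no H3K27me3 peak in any library. The neuronal gene brp had 16.9% on average and repo of glia 84.0%. The testis genes bam, aly and can averaged 33.6%, 60.8% and 55.8%.

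The clock genes fell into 3 kinds by their H3K27me3. Clk and tim carried broad H3K27me3 in all 8 libraries, with mean coverages of 50.6% ± 10.9 and 52.6% ± 14.4 (SD, n = 8 libraries), above 78.0% and 78.7% of autosomal genes. Pdp1 and dco had a short stretch in all 8 libraries, with means of 7.34% ± 3.21 and 4.27% ± 1.34. In the remaining 5 genes it was absent from some or all libraries: cyc and vri had 0 in all 8, cwo and cry were above 0 in 1 library each, and per was above 0 in 5. Of autosomal coding genes, 49.9% had 0 in all 8 H3K27me3 libraries and 22.1% were above 0 in all 8.

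H3R17me2 was more evenly spread. Mean coverage ran from 19.1% ± 22.6 at cyc, 20.5% ± 14.3 at dco, 25.4% ± 6.70 at Pdp1, 27.9% ± 16.8 at vri, 30.3% ± 20.9 at cry, 30.6% ± 12.6 at Clk and 30.8% ± 21.0 at cwo to 41.8% ± 11.4 at tim, with 2.97% ± 8.40 at X-linked per (SD, n = 8 libraries). Neighbours in this order differed by less than their SDs. The median autosomal gene had 32.5%, and tim alone among the clock genes stood above it. The 72 combinations of a clock gene with a library included 9 with at least 50% of the region under H3R17me2 peaks and 12 with at least 50% under H3K27me3 peaks. Any covered base was found in 58 and 39 of them, and the whole region in 0 for either mark. Over all coding genes, a library averaged 23.0% of genes at 50% or more for H3R17me2 and 19.9% for H3K27me3. Any covered base was found in 60.7% and 31.8% of all coding genes, and the share wholly covered was not computed.

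**Figure D1:**
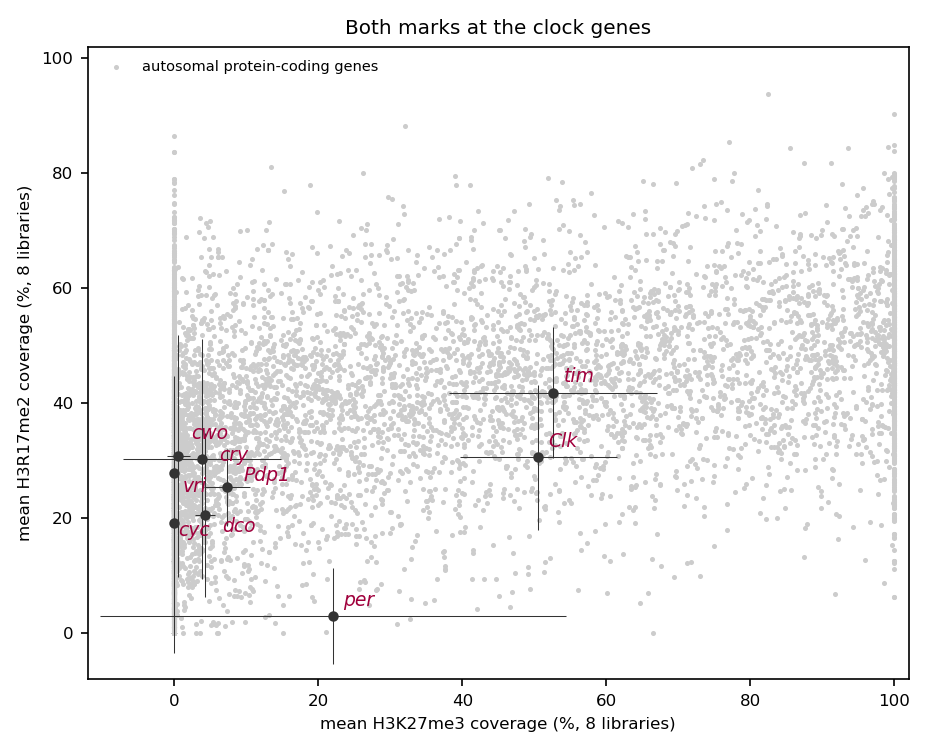
Mean H3R17me2 coverage (vertical axis, %) against mean H3K27me3 coverage (horizontal axis, %) over the 8 libraries of each mark, with autosomal protein-coding genes as grey points and the 9 clock genes as dark points with bars of 1 SD over the 8 libraries. Clk and tim stand at 50.6% and 52.6% H3K27me3, per at 22.0% with an SD of 32.4, and the other 6 clock genes at 7.34% or less.

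**Figure D2:**
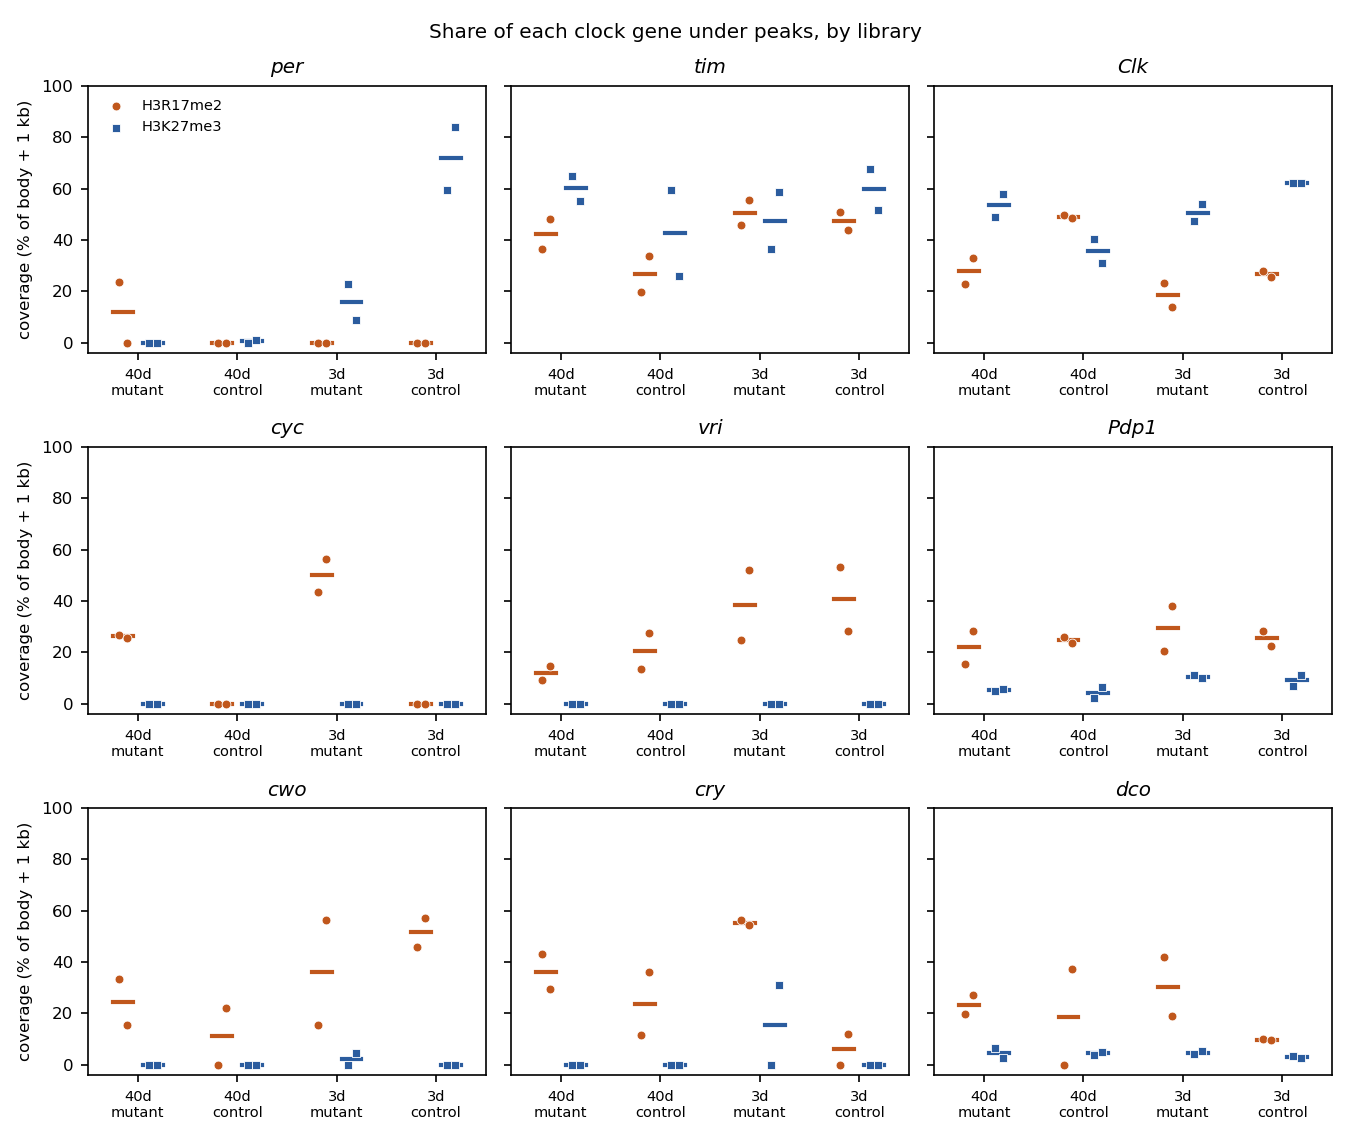
Coverage (vertical axis, % of gene body and 1 kb upstream) of each clock gene in aged mutants, aged controls, young mutants and young controls, with 1 point per library and a line at the mean of the 2 libraries, H3R17me2 as circles and H3K27me3 as squares. H3K27me3 at per is at 59.5% and 84.2% in young controls and at 1.02% or less at 40 days, and H3R17me2 at cyc is above 0 in mutants and at 0 in controls.

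The peaks over clock genes were weak for H3R17me2. All 172 H3R17me2 peaks that touched a clock gene had a fold enrichment over input of 1.23 to 1.79, with a median of 1.38, against a median of 1.39 over all H3R17me2 peaks, and none had a q-value under 0.05 (the highest -log10 q was 0.328). The 50 H3K27me3 peaks at clock genes had fold enrichments of 1.27 to 3.45 with a median of 1.502, and 28 of them, 56.0%, had a q-value under 0.05. These 28 peaks were at dco in 8 libraries, at Pdp1 in 6, and at per, Clk and tim in 4 each.

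E-boxes are the sites through which CLK/CYC acts, and they served as landmarks for where the peaks lay. The letters CACGTG, which read the same on both strands, occurred 39 times in the 9 regions, in every gene but cry, or 0.267 per kb against 0.127 per kb over the regions of all coding genes. Of the 39, 13 lay under an H3K27me3 peak in at least 1 library and 25 under an H3R17me2 peak. Only 1, in Clk, lay under H3K27me3 peaks in all 8 libraries. The matching shares for the E-boxes of all coding genes were not computed. As examples, 9 of them were picked by no set rule, and other E-boxes of per, tim, vri, Pdp1, cwo and dco differ in the peaks over them. Their sequences are shown 5' to 3' on the gene's strand, with the E-box in capitals and positions in dm6:
per, upstream of the start, chrX:2685023-2685082: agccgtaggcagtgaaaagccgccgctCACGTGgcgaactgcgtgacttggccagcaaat
per, coding exon, chrX:2690353-2690412: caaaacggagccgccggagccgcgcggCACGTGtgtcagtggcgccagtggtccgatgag
Clk, intron, chr3L:7768965-7769024: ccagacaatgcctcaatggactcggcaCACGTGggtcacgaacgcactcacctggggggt
cyc, coding exon, chr3L:19814333-19814392: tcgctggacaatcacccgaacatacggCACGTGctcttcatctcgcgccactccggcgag
tim, 5' UTR, chr2L:3507405-3507434: acgttgtgattaCACGTGagccgatttccc
vri, intron, chr2L:5304649-5304708: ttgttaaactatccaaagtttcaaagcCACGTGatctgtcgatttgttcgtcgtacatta
Pdp1, intron, chr3L:7833802-7833861: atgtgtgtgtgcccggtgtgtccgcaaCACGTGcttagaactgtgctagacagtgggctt
cwo, intron, chr3R:10390425-10390484: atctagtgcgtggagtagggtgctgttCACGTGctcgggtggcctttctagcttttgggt
dco, upstream of the start, chr3R:31061944-31062003: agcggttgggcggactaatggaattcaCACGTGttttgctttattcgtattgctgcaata

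The E-box of Clk shown above was under H3K27me3 in 8 of 8 libraries, that of Pdp1 in 5, that of dco in 6, the coding one of per in 3 and the upstream one of per in 1. The E-boxes of cyc, tim, vri and cwo shown were under H3K27me3 in none. H3R17me2 peaks held the E-box of cwo in 5 libraries, that of Clk in 4 that of cyc in 4, which were the 4 mutant libraries, and that of tim and the coding one of per in 1 each. The site bound by VRI and PDP1, searched as TTATGTAA and its reverse complement, occurred 19 times in 6 of the genes, and 1 of these, in Clk, was under H3K27me3 in all 8 libraries. In the 300 bases around each gene's start (250 before and 50 after), searched on both strands, CACGTG was found in 1 of the 9 clock genes (Pdp1) and in 4.20% of all coding genes, TTATGTAA in 0 and in 2.15%, GAGAG, the core of the GAGA factor site, in 5 and in 29.7%, and GCCAT, the core of the PHO site, in 4 and in 41.2%.

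Clk (FBgn0023076, chr3L:7763233-7775603, minus strand) encodes the activator CLK. Its H3K27me3 coverage was 49.0% and 58.1% in aged mutants, 40.6% and 31.0% in aged controls, 47.3% and 54.0% in young mutants and 62.1% and 62.2% in young controls. The stretch covered in all 8 libraries was 2806 bp long (chr3L:7768639-7771444), began 4.16 kb downstream of the gene's start and held the E-box shown above. The start of Clk-RA, Clk-RD and Clk-RF, at the gene's 5' end, lay under H3K27me3 in 0 of 8 libraries, and the inner start of Clk-RG and Clk-RH in 6. The nested gene CG32371, on the same strand inside Clk, was covered over 83.7% of its length on average, so peaks there cannot be given to one gene or the other.

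H3R17me2 at Clk was 22.7% and 33.0% in aged mutants, 49.7% and 48.6% in aged controls, 23.2% and 14.1% in young mutants and 28.0% and 25.8% in young controls. The mutant libraries lay below the control libraries at both ages, and aged controls were the highest of the 4 conditions. Both marks lay on the same bases over 21.8% of the region on average, between 13.0% and 37.9% in the 8 pairs of libraries of the same condition and number, against an average of 11.7% for autosomal genes.

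cyc (FBgn0023094, chr3L:19813770-19815938, minus strand) encodes CYC, the partner of CLK. It had no H3K27me3 peak in any library, and the nearest one lay 27.7 kb away or more. Its H3R17me2 coverage was 26.9% and 25.6% in aged mutants, 0 and 0 in aged controls, 43.7% and 56.5% in young mutants and 0 and 0 in young controls. Thus peaks were listed in all 4 mutant libraries and in none of the 4 control libraries. The 4 mutant libraries shared 379 bp (chr3L:19814208-19814586), 1.35 to 1.73 kb downstream of the start, and the coding E-box shown above lies in it. The 5 peaks at cyc were faint, with fold enrichments of 1.32 to 1.43 and a -log10 q of at most 0.129. Of these, 4 covered the shared stretch. The other, in young mutant replicate 1, lay upstream of the start and covered 56.7% of the 1 kb there.

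per (FBgn0003068, chrX:2685580-2692780, plus strand) encodes the repressor PER. Its H3K27me3 coverage was 0 and 0 in aged mutants, 0 and 1.02% in aged controls, 22.9% and 8.72% in young mutants and 59.5% and 84.2% in young controls. The young controls stood far above all other libraries, and all 3-day-old libraries stood above all 40-day-old ones. The low values depend on the 1 kb limit, since an H3K27me3 peak lay on per or within 1.8 kb of it in every library. With 3 kb upstream, the aged mutants had 16.2% and 12.0% and the aged controls 15.1% and 20.4%. The young mutants then had 34.8% and 23.9% and the young controls 67.4% and 87.3%. The peaks of the 4 young libraries shared 155 bp, 4.46 to 4.61 kb from the start, and 1 of these peaks, in young control replicate 2, reached over the start itself. With the upstream peak of aged control replicate 2 there were 6 peaks, with fold enrichments of 1.33 to 2.18, and 5 of them had a q-value under 0.05. H3R17me2 was listed in 1 library of 8, aged mutant replicate 1, at 23.8%, and its mean was above that of 96.2% of X-linked genes. The neighbour dyw, which overlaps the 3' end of per on the opposite strand, had no peak of either mark in any library.

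tim (FBgn0014396, chr2L:3493986-3508119, minus strand) encodes TIM, the partner of PER. Each mark was found on it in all 8 of its libraries. H3K27me3 covered 65.1% and 55.3% in aged mutants, 59.6% and 26.0% in aged controls, 36.4% and 58.7% in young mutants and 67.8% and 51.8% in young controls. The conditions overlapped, and the 2 libraries of aged controls were further apart than the means of any 2 conditions. The mark lay towards the 3' end, with a mean coverage of 22.8% in the first of 3 equal parts of the body, 71.5% in the middle one and 74.6% in the last, while the 3 transcription start sites of tim were free of it in every library. Over all autosomal genes, the 3 parts had 23.5%, 25.3% and 23.5%. In all 8 libraries an H3K27me3 peak crossed the 3' end of tim and ran on past the gene. The longest of these peaks was 30875 bp, in young control replicate 1.

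H3R17me2 covered 36.4% and 48.3% of tim in aged mutants, 19.9% and 33.7% in aged controls, 45.9% and 55.5% in young mutants and 51.1% and 43.8% in young controls. The aged controls were the lowest condition. Both marks shared 28.3% of the region on average, from 8.80% to 46.2%, in 8 of 8 pairs. The nested genes snoRNA:Or-CD16 (same strand) and lncRNA:CR46495 (opposite strand) were covered by H3K27me3 in 6 and 5 libraries, and CG31954, upstream of tim, had H3R17me2 in 7 libraries and H3K27me3 in 0.

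vri (FBgn0016076, chr2L:5288944-5311223, plus strand) encodes the repressor of Clk. No library had an H3K27me3 peak on it, and the nearest lay 19.6 to 28.5 kb away. Its H3R17me2 coverage was 9.28% and 14.6% in aged mutants, 13.4% and 27.6% in aged controls, 24.6% and 51.9% in young mutants and 53.3% and 28.5% in young controls. The old libraries were the lower ones except that aged control replicate 2 stood above young mutant replicate 1. Of its 3 transcription start sites, that of vri-RC lay under H3R17me2 in 5 libraries, that of vri-RA, vri-RD and vri-RF in 1 and that of vri-RE in 0. Its 4 E-boxes lie in an intron, 14.41 to 15.73 kb from the start of vri-RE, between the other 2 starts.

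Pdp1 (FBgn0016694, chr3L:7811458-7867369, minus strand) encodes the activator of Clk and is the longest of the 9 genes, with 13 transcripts from 4 starts. Its H3K27me3 was confined to 1 part of the gene, near the inner start of Pdp1-RD and Pdp1-RJ, and was there in all 8 libraries. Coverage was 5.10% and 5.61% in aged mutants, 2.09% and 6.57% in aged controls, 11.1% and 10.0% in young mutants and 7.09% and 11.2% in young controls. Every 3-day-old library was above every 40-day-old one. The 968 bp present in all 8 libraries (chr3L:7830565-7831532) lay 35.8 to 36.8 kb from the gene's 5' end, downstream of the inner start. The inner start itself, with 34.3 kb before it, was under the mark in 5 libraries. The 4 peaks of the young libraries were 4033 to 6376 bp long with fold enrichments of 1.73 to 2.09 and a -log10 q of 3.31 to 6.33. The 5 peaks of the old libraries were 1188 to 3195 bp long with fold enrichments of 1.35 to 1.57 and a -log10 q of 0.658 to 1.80. The E-box of Pdp1 shown above was held by the peaks of the 4 young libraries and by 1 of the old ones.

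H3R17me2 at Pdp1 was 15.5% and 28.3% in aged mutants, 25.9% and 23.5% in aged controls, 20.7% and 38.3% in young mutants and 28.4% and 22.7% in young controls, in 63 short peaks scattered over the gene. The 4 conditions overlapped.

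cwo (FBgn0259938, chr3R:10388258-10400752, plus strand) encodes the E-box repressor CWO, and its introns hold 7 of its 9 E-boxes. H3R17me2 covered 33.6% and 15.4% in aged mutants, 0 and 22.3% in aged controls, 15.5% and 56.5% in young mutants and 46.0% and 57.2% in young controls. The young controls were both high, while the 2 libraries of young mutants were further apart than the highest and lowest old libraries. H3K27me3 was listed in young mutant replicate 2 alone, at 4.46%.

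cry (FBgn0025680, chr3R:19212154-19215442, plus strand) encodes the light receptor. H3R17me2 covered 43.0% and 29.4% in aged mutants, 11.5% and 35.9% in aged controls, 56.2% and 54.4% in young mutants and 0 and 12.1% in young controls. The mutants were above the controls at 3 days and overlapped them at 40 days. H3K27me3 was listed in young mutant replicate 2 alone, at 30.9%, with a fold enrichment of 1.37. The gene vib overlaps the 3' end of cry on the opposite strand and lncRNA:CR46393 lies inside it.

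dco (FBgn0002413, chr3R:31054085-31061210, minus strand) encodes Doubletime. Its body was free of H3K27me3 in all 8 libraries, but the edge of a broad domain of it stood just upstream of it. In every library a peak of 12197 to 12483 bp began 459 to 786 bp before the start of dco and ran away from it, into Sox100B, a transcription factor gene on the other strand. It included the most enriched H3K27me3 peak at any clock gene, with fold enrichments of 1.58 to 3.45 and a q-value under 0.05 in all 8 libraries. Coverage of the dco region by it was 6.66% and 2.82% in aged mutants, 3.96% and 5.02% in aged controls, 4.23% and 5.27% in young mutants and 3.58% and 2.63% in young controls, and the young controls lay below both the young mutants and the aged controls, while the other conditions overlapped. The upstream E-box of dco shown above fell inside the domain in 6 libraries and outside it in 2. H3R17me2 covered 19.9% and 26.98% of dco in aged mutants, 0 and 37.1% in aged controls, 42.0% and 18.9% in young mutants and 9.98% and 9.49% in young controls.

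**Figure D3:**
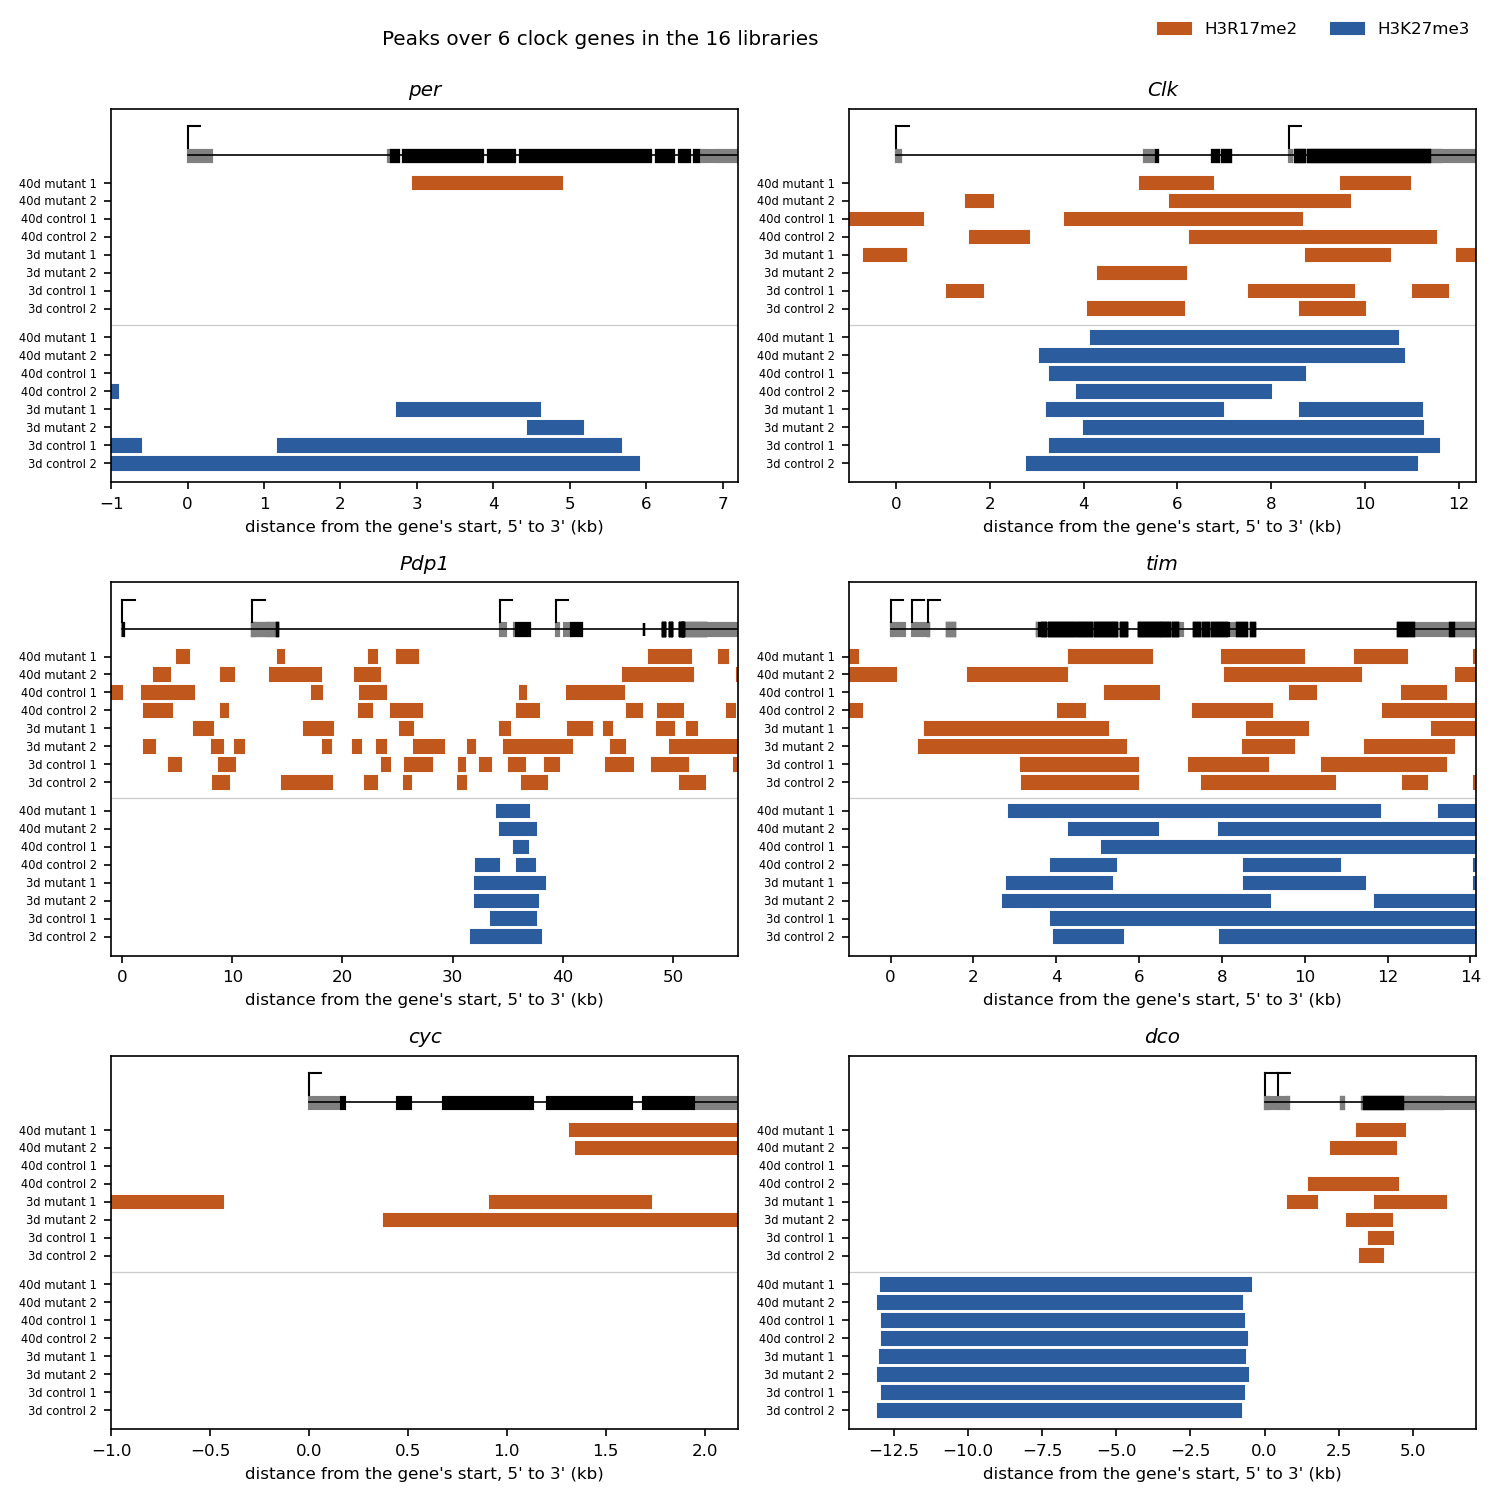
Peaks of H3R17me2 (upper 8 rows of each panel) and H3K27me3 (lower 8 rows) over per, Clk, Pdp1, tim, cyc and dco in each library, against the distance from the gene's start (kb, 5' to 3'), with exons of all transcripts as boxes (coding parts black) and transcription start sites as bent lines. H3K27me3 at Pdp1 stays near an inner start, that upstream of dco ends 459 to 786 bp before the gene, and H3R17me2 at cyc is in the 4 mutant libraries.

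The 9 genes have 18 transcription start sites. Of the 144 combinations of a start with a library of a mark, 18 were under H3R17me2 (12.5%) and 12 under H3K27me3 (8.33%). Over all autosomal genes these shares were 24.3% and 18.9%.

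The comparison of old with young heads asked whether the marks at the clock genes changed with age. H3K27me3 was lower at per and Pdp1, where every 40-day-old library was below every 3-day-old one, and 0 clock genes went the other way. At per the 4 old libraries averaged 0.256% and the 4 young ones 43.8%, a difference of -43.6 percentage points, and at Pdp1 4.84% and 9.85%, a difference of -5.002 points (exact two-sided permutation test, p = 0.0286 each, the smallest p that 4 libraries against 4 allow; 0.424 each after Benjamini-Hochberg adjustment over all coding genes). Of all coding genes, 0.158% had every old library below every young one, and 6.58% had every old library above. On the X chromosome, where per lies, 0.182% of genes were lower in this way, that is 4 of 2196, which were per, acj6, CG1835 and CG6023. The mean H3K27me3 coverage of autosomal genes was 8.497 points higher at 40 days. A negative difference was found at 6 clock genes, against 6.78% of all coding genes. It was positive at 1 clock gene and 0 at cyc and vri. Among the 6, tim (-2.16 points) and Clk (-11.7 points) overlapped between the ages. The differences at cwo (-1.12 points) and cry (-7.73 points) rest on 1 peak each, in young mutant replicate 2. Coverage of X-linked genes overlapped between the ages, with 3.03% to 8.14% in aged and 3.84% to 6.24% in young libraries. Of the 8 marker genes, the testis genes bam and aly were higher in every aged library (62.3% and 4.93%, and 77.9% and 43.7%, at 40 and 3 days), and those of neurons, glia and photoreceptors overlapped between the ages. The part of these shifts in the results at per and Pdp1 was not tested. Under limma, which fits all genes together, the adjusted p was 0.137 for per and 0.109 for Pdp1, so neither was called. The call at per was lost when peaks were restricted to a q-value under 0.05, to a p-value of 0.001 or less or to the same number in each list, although the difference stayed between -41.4 and -35.7 points.

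Within controls, 3 clock genes were lower in both 40-day-old than in both 3-day-old libraries (per, Clk and Pdp1, against 1.84% of all coding genes) and 1 was higher (dco, against 14.2%). Within mutants, 2 were lower (per and Pdp1, against 0.825%) and 0 higher (against 14.7%). With 2 libraries against 2, the exact test cannot give a p below 0.3333, so these counts are descriptions. At Clk the old minus young difference was 2.89 points in mutants and -26.4 points in controls.

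H3R17me2 separated the ages at no clock gene: 0 were higher in every 40-day-old library, against 0.538% of all coding genes, and 0 were lower, against 1.46%. By limma 0 clock genes passed, at 0 of 11903 genes fitted, and by the exact test 0 clock genes had an unadjusted p under 0.05. The largest differences were at cwo, where 40-day-old libraries averaged 17.8% and 3-day-old ones 43.8% (exact permutation p = 0.0857), and at vri, with 16.2% and 39.6% (exact permutation p = 0.0571). Within controls, tim, vri and cwo were lower in both old libraries (17.2% of all coding genes were) and Clk was higher (6.12%). The difference at tim was -20.6 points as measured and 10.5 points when each list was cut to the same number of peaks, the list of aged control replicate 1 being the shortest, and to 15.4 points with 1 kb upstream alone. Within mutants, cyc, vri and cry were lower (9.53%) and 0 were higher (13%), and the difference at vri was 17.9 points with 1 kb upstream alone. Leaving out single libraries separated the remaining old from the remaining young libraries at some genes. The old ones were lower at vri and cwo without young mutant replicate 1 and at vri without aged control replicate 2. They were also lower at tim without aged mutant replicate 2, and higher at Clk without aged mutant replicate 1. The share of all coding genes separated under such omissions was not computed.

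The comparison of mutants with controls asked whether LKRSDH bears on the marks. For H3R17me2, cyc was higher in every mutant than in every control library, with 38.2% on average against 0, a difference of 38.2 points (exact two-sided permutation test, p = 0.0286; 1.00 after adjustment over all coding genes; limma adjusted p = 0.782). Of all coding genes, 1.51% were higher in this way and 0.272% lower, and 0 clock genes were lower. The mean difference over autosomal genes was 7.21 points, with the mutants higher, and its part in the result at cyc was not tested. The call at cyc did not hold when each list was cut to the same number of peaks (difference 20.5 points), and no peak there met a q-value under 0.05 or a p-value of 0.001. cry came next, with 45.8% in mutants and 14.9% in controls (exact permutation p = 0.0571), and its groups did not overlap without aged mutant replicate 2 or without aged control replicate 2. Without aged control replicate 2 dco did not overlap either, and without aged mutant replicate 2 Clk did not, the mutants being lower. Shares of all coding genes under these omissions were not computed.

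At 3 days, H3R17me2 was higher in both mutant than in both control libraries at cyc, cry and dco (11.5% of all coding genes were) and lower at Clk (10%). At 40 days it was higher at tim and cyc (20.4%) and lower at Clk (4.47%). The 40-day difference at tim was 15.53 points as measured and -3.47 points with the same number of peaks in each list. Clk averaged 27.9% in mutants and 49.1% in controls at 40 days, and 18.6% and 26.9% at 3 days, so the 4 mutant libraries were below the controls of their own age. With 1 kb upstream alone the difference at Clk at 3 days was 34.6 points.

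For H3K27me3, 0 clock genes were higher in every mutant library, against 0.0932% of all coding genes, and 0 were lower, against 0.1%. By the exact test 0 clock genes had an unadjusted p under 0.05, and by limma 0 passed. At 3 days, per and Clk were lower in both mutant libraries (3.89% of all coding genes were) and dco was higher (2.44%). At 40 days, Clk was higher (4.81%) and 0 were lower (3.84%). At per the young mutants averaged 15.8% and the young controls 71.8%, a difference of -56.0 points, and 0.402% of all coding genes had a more negative one. Clk thus differed in opposite directions at the 2 ages, by 17.8 points at 40 days and by -11.5 points at 3 days, and this change of direction was not tested.

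**Figure D4:**
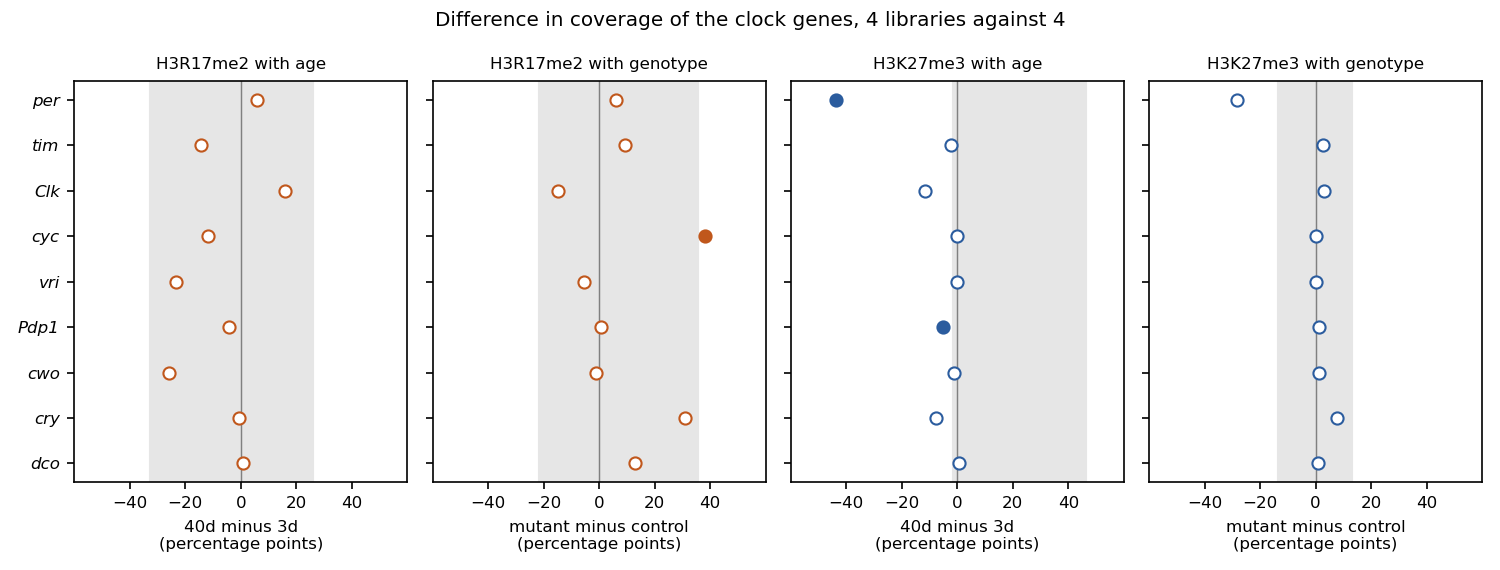
Difference in mean coverage (percentage points) of each clock gene with age (40d minus 3d) and with genotype (mutant minus control) for each mark, 4 libraries against 4, filled where the libraries of the 2 groups did not overlap. The grey band runs from the 5th to the 95th percentile of all coding genes. per and Pdp1 are filled for H3K27me3 with age, at -43.6 and -5.002 points, and cyc for H3R17me2 with genotype, at 38.2 points.

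Set against each other in the 16 libraries, H3R17me2 covered more than H3K27me3 at vri, Pdp1, cwo, cry and dco and less at Clk, with adjusted p-values under 0.05 (exact two-sided permutation test of 8 libraries against 8, adjusted over all coding genes). The difference was 27.9 points at vri, 30.3 at cwo, 26.5 at cry, 18.1 at Pdp1 and 16.3 at dco, and -19.9 at Clk, with adjusted p-values of 0.00148 to 0.0277. For per, tim and cyc it did not pass, with adjusted p-values of 0.198, 0.206 and 0.138. Of all coding genes, 25.6% were higher in H3R17me2 and 10.2% lower. The marks come from different antibodies and lists of different length. With peaks of a q-value under 0.05 none of these 6 calls held: dco passed in the opposite direction, at -4.27 points, and Pdp1 was at -5.99 points. With a p-value of 0.001 or less the values were -4.27 at dco and -4.92 at Pdp1, and with 1 kb upstream alone Clk was at 21.2 and dco at -34.7. With condition and replicate number as a block, 0 of all coding genes passed, the smallest adjusted p of the exact sign-flip permutation being 0.0591. With 8 pairs that permutation cannot give an unadjusted p below 0.00781. This 0 is bounded by the number of pairs and does not show that the marks are alike.

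The genes with the most similar coverage over the 16 libraries were taken from outside 100 kb of each clock gene. For tim these were pum and prc, with mean absolute differences of 8.43 and 8.76 points, and for Clk for and Gycalpha99B, with 9.15 and 9.74. For per they were org-1 and CG9570, both X-linked, with 7.80 and 8.33. For vri they were defl and HmgD (2.92 and 3.30), for Pdp1 Roc2 and Hr3 (5.32 and 5.63), for cwo mrt and CG33978 (2.49 and 3.01), for cry CG12783 and lig (5.26 and 5.75) and for dco nAChRbeta1 and gro (4.95 and 5.004).

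The other genes of the clock pathway are given by role, and the lists were not tested against each other. The 15 protein and RNA regulators of the clock, such as the kinase genes sgg and nmo and the E3 ligase genes slmb and ctrip, had little or no H3K27me3: 13 had 0 in all 8 libraries, as 55.2% of all coding genes did, and the highest mean was 1.21%, at nmo. Their median H3R17me2 coverage was 23.6%, against 27.9% for the 9 clock genes and 28.1% for all coding genes, and was highest at ctrip (43.4%), Atx2 (32.3%) and nmo (32.3%). The transcription factor genes beside the core clock, kay, Mef2, Eip75B, Hr51 and Fer2, had an H3K27me3 peak in at least 1 library each, with means of 99.2% at Hr51, 87.9% at Fer2, 11.5% at kay and down to 0.239%. Their H3R17me2 was highest at Hr51 (54.4%), Mef2 (35.7%) and Eip75B (29.0%).

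The genes of light input and of output differed by age in some members. qsm and Rh7, 2 of the 4 light input genes, had more H3K27me3 in every 40-day-old than in every 3-day-old library: qsm, which takes part in light resetting, had 53.5% on average at 40 days and 6.45% at 3 days, and the opsin gene Rh7 81.3% and 28.2%. Of the 8 output genes, to (takeout) and the neuropeptide gene Dh44 did likewise, with 74.9% and 15.7% and with 65.1% and 18.8%. None of these lists had a gene that was lower. The share of all coding genes that were higher in this way was 6.58%, as given above. gl, a photoreceptor factor of the light input list, had 94.8% H3K27me3 on average, Dh31 68.5% and Pdf, the neuropeptide of the clock neurons, had the highest H3R17me2 of the output list, 66.6%. In H3R17me2, kay alone of the pathway genes separated the ages, with 14.0% at 40 days and 23.97% at 3 days. Of all coding genes, 1.46% were lower in this way and 0.538% higher. None of the pathway genes separated the genotypes in either mark. Of all coding genes, 1.51% were higher in mutants and 0.272% lower for H3R17me2, and 0.0932% and 0.1% for H3K27me3.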

How the data were processed

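ChIP-seq peak lists of 16 immunoprecipitated libraries (H3R17me2 and H3K27me3, 2 replicates in each of 4 conditions) were analysed. The 8 input libraries were not analysed here. According to the submitters' processing notes and the study's methods, reads were trimmed with Trim Galore 0.6.0, aligned to dm6 with Bowtie2 2.5.1, handled with SAMtools 1.19 and stripped of PCR duplicates with Picard, and broad peaks were called per library against input with MACS2 2.2.7.1. The authors deposited a fold enrichment over input for each peak. Each peak also carries a -log10 p and a -log10 q from MACS2, kept as deposited. The smallest -log10 p listed was 1.00, below what the p-value cutoff stated by the study would give for a single position. The study's command asked for broad regions and named no separate cutoff for them. Which cutoff applied to the broad regions, and whether the listed values are averages over them, was not checked. Peaks here may therefore include regions weaker than the stated cutoff. No peak was shorter than 500 bp. These lists hold no counts, so depth is unknown and no interval was computed. A weak mark that narrowly missed the caller's threshold counts as absent, and a coverage of 0 means only that no peak was listed.

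Samples were grouped by their titles, and each list was tied to its sample by matching the names of its peaks with the sample descriptions. Gene models were those of Ensembl BDGP6 release 115, on the dm6 sequence, and sequences were read from the RefSeq genome of the same release. Overlapping peaks were merged and coverage was the percentage of the gene body plus 1000 bp upstream under them. Libraries were compared by exact two-sided permutation of the difference in means for all 13945 coding genes, with Benjamini-Hochberg adjustment, and a gene was called for age or genotype when the libraries of the groups did not overlap and for the marks at an adjusted p under 0.05. limma 3.58.1 in R 4.3.3 (age and genotype as terms, genes without a peak of the mark left out) served as an alternative, beside stricter peak sets, other regions, the replicate number as a block and each library left out. Python 3.11.15, NumPy 2.4.6 and pandas 2.3.3 were used, and the functions were tested on simulated data.

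All 9 members are named. Genes of similar coverage (up to 2 for each member with at least 20% in either mark, at least 100 kb away), neighbours within 1 kb, and of each pathway list up to 3 genes per mark with the highest mean and those without overlap between groups were named by rule. The members and lists were chosen with earlier results of these data known.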

Additional observations from a re-analysis of the deposited data

Results flagged for a closer look

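The H3K27me3 coverage of Clk differed between mutants and controls in opposite directions at the 2 ages. At 40 days the mutants (49.0% and 58.1%) were above the controls (40.6% and 31.0%), by 17.8 percentage points, and at 3 days the mutants (47.3% and 54.0%) were below the controls (62.1% and 62.2%), by -11.5 points. The difference between the ages was not tested, since 2 libraries stand on each side. Of all coding genes, 92 (0.660%) showed the same pair of directions without overlap at either age, and 32 (0.229%) the opposite pair.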

How the results depend on the processing

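H3K27me3 with age separated 2 clock genes as reported and 1 (Pdp1) with peaks of a q-value under 0.05, of a p-value of 0.001 or less or in equal number per list, and 0 with 1 kb upstream alone or by limma. H3R17me2 with age separated 0 as reported and 1 with the gene body alone (tim). H3R17me2 with genotype separated 1 (cyc) as reported and 0 with the stricter q-value or p-value, equal numbers of peaks, 1 kb upstream alone or limma. Of the 6 calls between the marks none held with the stricter q-value, the stricter p-value or 1 kb upstream alone, where 1 gene (dco) passed in the opposite direction. Leaving out each library gave 2 to 2 genes for H3K27me3 with age and 0 to 0 for H3K27me3 with genotype. It gave 0 to 2 for H3R17me2 with age, 1 to 3 for H3R17me2 with genotype and 5 to 6 for the marks. The matching shares of all coding genes under these peak sets, regions and omissions were not computed. With the replicate number as a block, H3R17me2 with age gave 1 gene (vri) and H3R17me2 with genotype 1. H3K27me3 with age gave 2 and H3K27me3 with genotype 0. For these the block asks for separation only within each replicate number, and its shares of all coding genes were not computed. The marks gave 0, the smallest adjusted p of the exact sign-flip permutation in the genome being 0.0591. That permutation cannot give an unadjusted p below 0.00781, which bounds this 0. Replicate 1 minus replicate 2 correlated between conditions at -0.170 to 0.0839 for H3K27me3 and -0.0303 to 0.0669 for H3R17me2. Between the marks within a condition it correlated at -0.0207 to 0.0118. Coverage under peaks is 0 at many genes, so these correlations cannot decide whether equal numbers mark shared material.

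Some differences changed sign. With 1 kb upstream alone, H3R17me2 minus H3K27me3 was 21.2 points at Clk and -34.7 at dco, H3R17me2 with genotype at 3 days was 34.6 at Clk, and H3R17me2 with age was 17.9 at vri in mutants and 15.4 at tim in controls. With 3 kb upstream, H3R17me2 minus H3K27me3 was -6.11 at dco. With q-values under 0.05 it was -5.99 at Pdp1 and -4.27 at dco, and with the p-value limit -4.92 and -4.27. With equal numbers of peaks, H3R17me2 at tim differed by -3.47 with genotype at 40 days and by 10.5 with age in controls. The causes were not tested. These sign changes are of differences with a call, since the sign was not followed for those without one. Beside these, the other values for clock genes under the alternatives that keep all libraries were sorted by size and call. Of them, 602 moved by no more than the spread between libraries or kept their call, 172 moved further, 25 lost their call and 3 gained one. The depth of the libraries is unknown, and no H3R17me2 peak at a clock gene had a q-value under 0.05.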
